A study of Homo sapiens with 32 samples.

Results

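SF3A and SF3B are the 2 multiprotein complexes that join the U2 small nuclear ribonucleoprotein and hold the branch site of an intron. The 10 genes that encode them were chosen by name, as SF3A1, SF3A2, SF3A3, SF3B1, SF3B2, SF3B3, SF3B4, SF3B5, SF3B6 and PHF5A. All 10 were found among the 18858 genes to which the transcripts of the files could be matched, and all 10 were among the 14319 genes that had enough reads to be tested. The libraries came from RNA of 4 established human cancer lines, the melanoma line A375, the colorectal line DLD1 and the breast cancer lines Cal51 and MDA-MB-231. All 4 came as cells labelled wild-type, which the design text calls sensitive to inhibition of the cyclin-dependent kinase CDK11, and as cells labelled G579S, which it calls resistant. The labels do not say which gene carries G579S, or whether the G579S cells are 1 clone or a pool. Cells of both genotypes received OTS964, a small-molecule inhibitor of CDK11, at 100 nM or the solvent DMSO at 0 nM for 6 h. There were 2 libraries in each of the 16 groups and 32 in all.

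In the spliceosome, the U2 particle recognises the branch-point adenosine, whose attack on the 5′ splice site starts splicing. SF3B clamps the duplex of U2 RNA and branch site, and SF3A links SF3B to the rest of the particle. SF3B also serves the U11/U12 particle of the minor spliceosome, while SF3A belongs to the U2 particle. CDK11 phosphorylates SF3B1 as the spliceosome becomes active, which is why the genes of this complex are of interest under OTS964.

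A library held between 16091376 and 29742687 estimated reads, of which 85.62% to 89.37% fell on transcripts matched to a gene, and the 10 genes together held 0.182% to 0.287% of the matched reads. Whether the 2 libraries of a group stem from separate cultures is not stated in the labels, so p-values here measure spread between samples that may be technical. No 2 libraries were identical. The replicates of Cal51 G579S under DMSO and of MDA-MB-231 wild-type under OTS964 differed most, with a chi-square per degree of freedom of 92.3 and 91.7, against 5.72 to 52.4 in the other 14 groups. The libraries labelled DLD1 wild-type held little of the markers of a colorectal line. Under DMSO they held 716 CPM (a gene's reads scaled to a common library size) of SOX10, a melanocyte lineage factor, and 3.25 CPM of CDX2, an intestinal factor, on average. The libraries labelled DLD1 G579S held 1.29 and 96.3 CPM of them. EPCAM, an epithelial adhesion molecule, stood at 21.8 against 689 CPM. A375 wild-type libraries held 591 CPM of SOX10, 0 of CDX2 and 0.159 of EPCAM. Of 9 colorectal markers, 4 reached 1 CPM in the DLD1 wild-type label, 5 in DLD1 G579S and 0 in A375 wild-type. Whether the libraries labelled DLD1 wild-type stem from another line was not tested. They are called by their label below, and counts of lines are counts of labels. Results pooled over lines are followed by their values without them where these were computed.

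In most cases 1 deposited transcript was matched to the gene. Among matched transcripts, SF3B1 had a full-length one with all of the reads and a short one at 0 in 32 of 32 libraries. SF3B2 had a curated one with 96.55% of the matched reads and a predicted one with 3.45%. Listed transcripts that were not matched to a gene were not counted here. The reads of SF3A2, SF3B3, SF3B5, SF3B6 and PHF5A were whole numbers in 32 of 32 libraries, so that none was divided with another listed transcript. Those of SF3A3, SF3B1 and SF3B2 were fractional in all of them.

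At 6 h of OTS964 the sharpest change in wild-type cells was a rise of SF3B5 and SF3B6, which encode small subunits of SF3B. On the scale set by edgeR's TMM factors, which assumes that most genes do not change, SF3B5 rose by 1.45 ± 0.10 (log2 fold change ± SE, 8 libraries against 8) and SF3B6 by 1.28 ± 0.09. SF3A2, of the SF3A complex, fell by 0.44 ± 0.14 on the log2 scale. These 3 directions were also called when libraries were scaled by their totals alone. Each of the other 7 genes was higher on the TMM scale, by 0.28 to 0.76. With library totals 5 of these 7 changed sign, and SF3B1 and SF3B4 stayed positive without passing the test.

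On the TMM scale 9 of the 10 genes were called higher in wild-type cells and 1 lower, at an adjusted p under 0.05 in edgeR's quasi-likelihood test. Of all genes tested 27.1% were called higher and 31.8% lower. The median log2 fold change of the 10 genes was 0.45, against -0.11 over all genes. Scaled by library totals, 2 of the 10 (SF3B5 and SF3B6) were higher and 4 (SF3A2, SF3A3, SF3B2 and PHF5A) were lower, against 13.4% and 47.7% of all genes. The median of the 10 was then -0.10 and that of all genes -0.65. On the TMM scale 9 of the 10 values lay above the median of all genes, and that of SF3A2 lay below it. Library totals shifted all genes by nearly the same amount (median -0.545), so the second scaling could hardly alter these positions. Without the libraries labelled DLD1, 7 were called higher and 1 lower on the TMM scale, against 25.6% and 28.1% of all genes, and the calls of SF3A1 and PHF5A were lost (adjusted p = 0.052 and 0.062, edgeR). Ranked by the TMM-scaled change among the genes tested, SF3B5 stood at the 96.4th percentile, SF3B6 at the 94.7th, SF3B4 at the 78.9th and SF3B1 at the 74.8th. SF3A2 stood at the 41.1st, and the other 5 between the 62.2nd and the 69.1st. Without the libraries labelled DLD1, SF3B5 stood at the 96.3rd percentile, SF3B6 at the 94.7th and SF3A2 at the 39.7th. The TMM factors averaged 0.768 in wild-type OTS964 libraries and 1.12 in wild-type DMSO libraries, and were 1.12 under DMSO and 1.04 under OTS964 in G579S cells. RNA of bulk cells was sequenced, and neither cell number nor the amount of RNA per cell can be read from these factors or counts. Whether either changed was not tested.

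**Figure D1:**
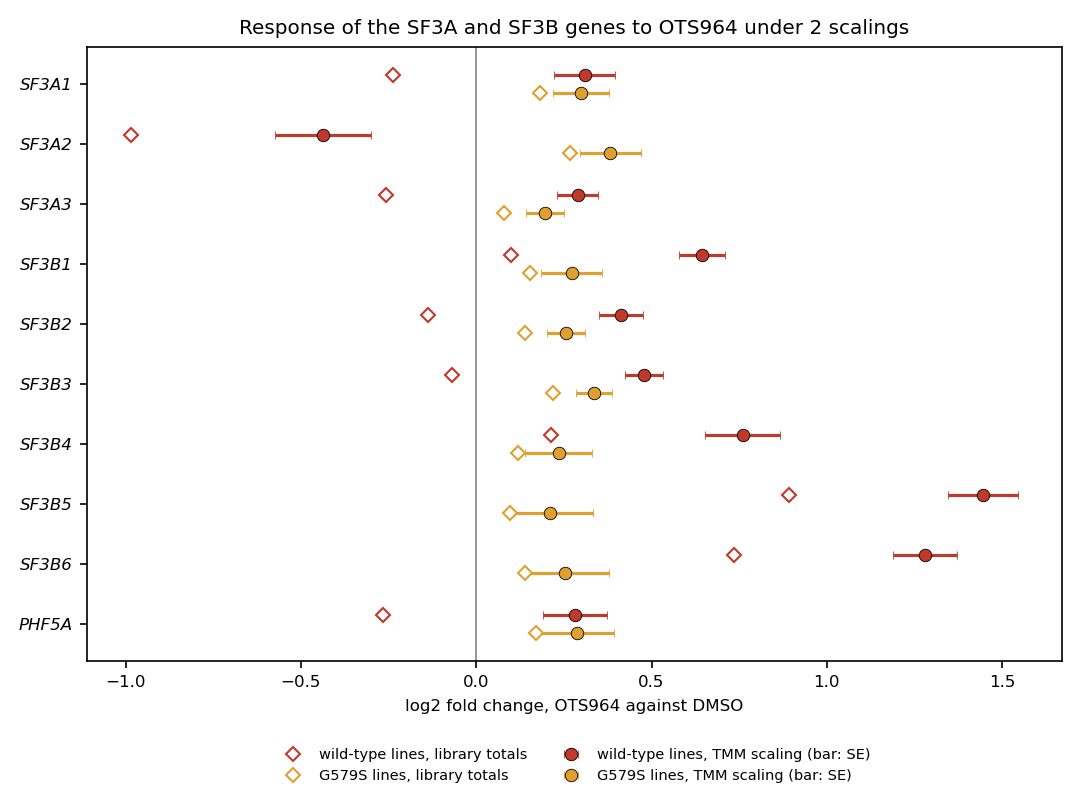
Log2 fold change of each gene with OTS964 across wild-type lines (red) and across G579S lines (orange). Filled circles are on the TMM scale with their SE, and open diamonds are scaled by library totals. SF3B5 and SF3B6 lie to the right of 0 and SF3A2 to the left in wild-type lines under both scalings. The other 7 genes fall on either side of 0 with library totals, between -0.27 and 0.21.

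Promoters are shown for the genes whose change kept both its direction and its call under both scalings, SF3B5, SF3B6 and SF3A2. Each is the stretch of 120 bases just before the start site in RefSeq's gene table of build GRCh38.p14, and capitals mark CCGGAAG or its reverse complement CTTCCGG, the core of sites bound by ETS factors. The SF3B5 stretch lies at chr6:144095574-144095693 on the minus strand, that of SF3B6 at chr2:24076327-24076446 on the minus strand and that of SF3A2 at chr19:2236704-2236823 on the plus strand.
SF3B5: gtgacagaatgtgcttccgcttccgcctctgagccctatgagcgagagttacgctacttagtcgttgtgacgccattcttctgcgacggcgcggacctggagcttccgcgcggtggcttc
SF3B6: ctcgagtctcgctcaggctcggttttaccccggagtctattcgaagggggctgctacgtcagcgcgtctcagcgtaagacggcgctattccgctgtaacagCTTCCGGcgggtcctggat
SF3A2: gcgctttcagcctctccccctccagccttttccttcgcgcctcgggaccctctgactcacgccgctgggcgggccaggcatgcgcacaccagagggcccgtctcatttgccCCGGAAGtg
The motif begins 19 bases before the start site in SF3B6 and 9 bases before it in SF3A2, and the stretch of SF3B5 has no match. SF3B6 rose and SF3A2 fell, and whether the motif had a part in either change was not tested. Over windows of 300 bases, from 250 before to 50 after the start, the motif was found on either strand in 6 of the 8 genes with a listed promoter (SF3A1, SF3A2, SF3A3, SF3B2, SF3B4 and SF3B6), against 10.3% of 35116 promoters. The 8 genes have 9 windows, and the 35116 promoters were not limited to expressed genes. AAGATGGC, the core of YY1 sites, was found in SF3A1, SF3B2 and SF3B4 and in 2.89% of promoters. GGGCGG, a GC box, was found in 6 of the 8 and in 45.0% of promoters. The E-box CACGTG was found in SF3B1 and in 7.26% of promoters, and CCAAT in SF3B5 and in 34.6% of them. TATAAA was found in 0 of the 8 and in 11.5%. No matches of 2 different motifs shared a base in these windows (0 pairs), and a match says only that the letters are there. SF3B3 and PHF5A were not analysed here.

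SF3B5 encodes a small protein that binds the SF3B3 propeller. Its TMM-scaled CPM was 64.9 and 64.5 in A375 wild-type cells under DMSO and 155 and 160 under OTS964. In Cal51 wild-type cells it was 105 and 99.8 under DMSO and 322 and 327 under OTS964. In libraries labelled DLD1 wild-type it was 67.3 and 58.3, and then 203 and 147. In MDA-MB-231 wild-type cells it was 78.1 and 88.4, and then 257 and 166. The treated and untreated libraries did not overlap in any of the 4 lines, and the Cal51 libraries were highest under both conditions. The change was 1.29 ± 0.20 in A375, 1.67 ± 0.20 in Cal51, 1.48 ± 0.20 in the DLD1 label and 1.35 ± 0.20 in MDA-MB-231 (log2 ± SE, n = 2 against 2). In edgeR's quasi-likelihood test the adjusted p across wild-type lines was 2.1e-08, and a test of differences among the 4 lines gave an adjusted p of 0.71. In the deposited TPM values, which are per transcript length and per library total, SF3B5 was also higher without overlap in 4 of 4 wild-type lines.

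SF3B6, also called p14, sits on SF3B1 near the branch site. Its TMM-scaled CPM went from 90 and 83.9 under DMSO to 216 and 240 under OTS964 in A375 wild-type cells. In Cal51 it went from 57.9 and 59.9 to 164 and 168, and in the DLD1 label from 85.2 and 114 to 215 and 272. In MDA-MB-231 it went from 57 and 59.4 to 108 and 115. The groups did not overlap in any of the 4 lines, and MDA-MB-231 gained least. The change was 0.94 ± 0.17 in MDA-MB-231 and 1.29 ± 0.17 to 1.5 ± 0.17 in the other 3 (log2 ± SE), but a test of differences among the lines gave an adjusted p of 0.26 with edgeR's quasi-likelihood test. Across wild-type lines its adjusted p was 2.9e-08 in the same test. In TPM, SF3B6 was higher without overlap in 3 of 4 wild-type lines. The exception was MDA-MB-231, at 202 and 211 TPM under DMSO and 202 and 253 under OTS964.

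SF3B1 is the scaffold of SF3B, a ring of HEAT repeats around the branch-site duplex, and the CDK11 substrate of the complex. Its TMM-scaled CPM under DMSO was 267 and 252 in A375, 348 and 361 in Cal51, 280 and 284 in the DLD1 label and 291 and 286 in MDA-MB-231. Under OTS964 it was 423 and 489, 603 and 590, 407 and 465, and 353 and 404 in the same order of lines. On this scale the groups did not overlap in any line. The change across wild-type lines was 0.64 ± 0.07 (log2 ± SE, adjusted p = 9.4e-07, edgeR). With library totals it was 0.10, with an adjusted p of 0.25. In TPM the median of the 8 wild-type libraries was 116 (96.1 to 157) under DMSO and 107 (84.4 to 134) under OTS964, and SF3B1 was lower without overlap in 3 of 4 lines. SF3B1 was thus higher on the TMM scale, not called with library totals and lower in TPM in most lines.

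SF3B4, which binds SF3B2 and carries RNA recognition motifs, showed a similar pattern. Its change was 0.76 ± 0.11 on the TMM scale (log2 ± SE, adjusted p = 2.3e-05, edgeR) and 0.21 with library totals (adjusted p = 0.095). Its TPM was higher without overlap in A375, at 254 and 237 under DMSO and 305 and 282 under OTS964. It was lower without overlap in MDA-MB-231, at 181 and 176 and then 145 and 133. In the DLD1 label the 2 OTS964 libraries held 173 and 314 TPM of SF3B4, on both sides of the 268 and 265 of DMSO.

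The other 3 SF3B genes are PHF5A, a small zinc-finger protein at the pocket for the branch adenosine, SF3B3, the scaffold of WD40 propellers, and SF3B2, which tethers SF3A and SF3B to each other. On the TMM scale SF3B3 was higher by 0.48 ± 0.05, SF3B2 by 0.41 ± 0.06 and PHF5A by 0.28 ± 0.09 (log2 ± SE). With library totals these 3 values were -0.07, -0.14 and -0.27. In TPM each of the 3 was lower without overlap in 4 of 4 wild-type lines. SF3B2 had a median of 288 TPM (226 to 319) in the 8 wild-type DMSO libraries and of 213 (165 to 259) in the 8 OTS964 libraries. PHF5A had medians of 112 (65.9 to 132) and 88.7 (36.3 to 102) TPM, and SF3B3 of 74.6 (39.8 to 97) and 60.6 (32.9 to 68.3).

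SF3A2, a zinc-finger protein of the SF3A trimer, was the gene of the 10 with a negative change on the TMM scale. Its TMM-scaled CPM in Cal51 wild-type cells was 134 and 129 under DMSO and 63.9 and 61.1 under OTS964. In A375 it was 123 and 116, and then 117 and 89.5. In the DLD1 label it was 131 and 126, and then 80.7 and 115. In MDA-MB-231 it was 187 and 193, and then 209 and 147. The treated libraries lay below the untreated ones in Cal51 and in the DLD1 label, and overlapped them in A375 and MDA-MB-231. Within lines it was called in Cal51, at -1.07 ± 0.17 (log2 ± SE, adjusted p = 2.4e-05, edgeR), and the other 3 values lay between -0.39 and -0.09. The test of differences among the 4 lines gave an adjusted p of 0.016 with edgeR. In TPM, SF3A2 was lower without overlap in 4 of 4 lines, with medians of 154 (128 to 245) under DMSO and 69 (38.7 to 145) under OTS964. In the test across lines the adjusted p was 0.013, and 0.04 without the libraries labelled DLD1.

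SF3A1, which also contacts the U1 particle, and SF3A3, the third member of that trimer, changed by 0.31 ± 0.09 and 0.29 ± 0.06 on the TMM scale (log2 ± SE). With library totals the values were -0.24 and -0.26. In TPM both were lower without overlap in 4 of 4 wild-type lines. SF3A1 went the other way in Cal51, at -0.11 ± 0.09, against 0.37 to 0.59 in the other 3, and its response differed among the lines (adjusted p = 0.0033, edgeR). SF3B2 also differed among the lines, from 0.17 ± 0.06 in A375 to 0.61 ± 0.06 in MDA-MB-231 (adjusted p = 0.0017, edgeR). With SF3A2, 3 of the 10 genes were called in that test, against 26.7% of all genes. When the DLD1 label was left out, 5 were called, against 31.1% of all genes.

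**Figure D2:**
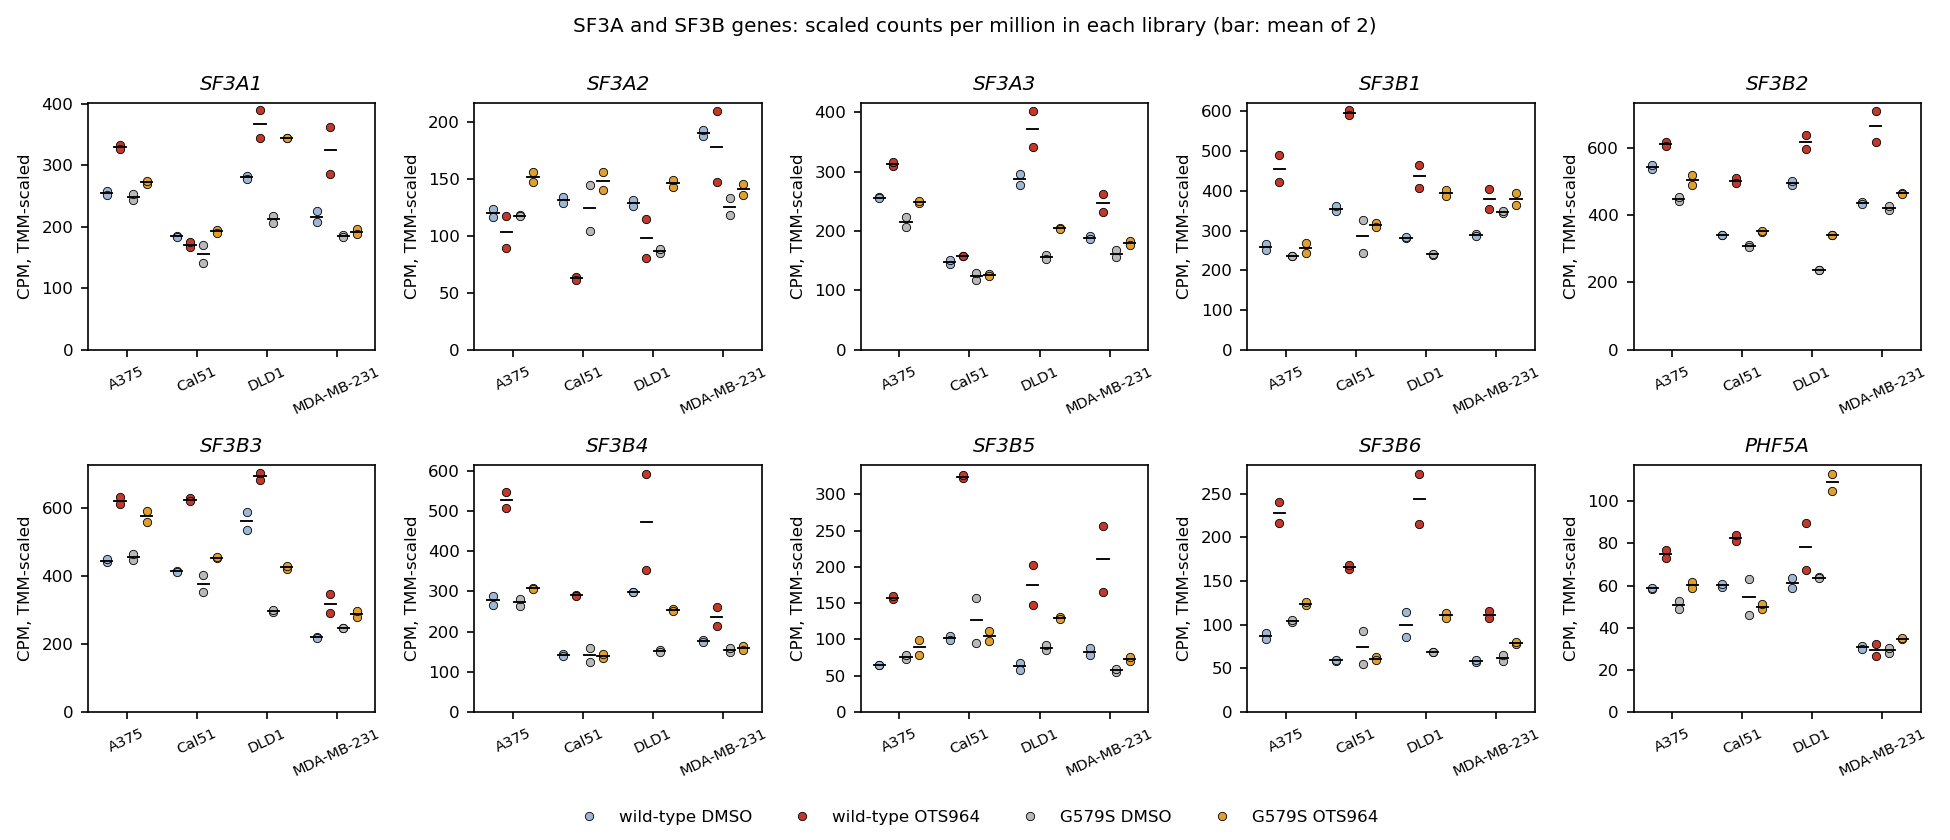
TMM-scaled CPM of each gene (y axis, from 0) in every library, by labelled line (x axis), genotype and treatment, with a bar at the mean of 2 libraries. In SF3B5 and SF3B6 the red points of wild-type OTS964 stand above the blue points of wild-type DMSO in each line, while in SF3A2 the red points of Cal51, at 63.9 and 61.1, stand below the 134 and 129 of DMSO.

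Within single wild-type lines the TMM-scaled calls were alike. In A375, 9 of the 10 genes were called higher and 0 lower, against 20.8% and 25% of all genes. In Cal51, 7 were called higher and 1 lower, against 24.9% and 27.8%. In libraries labelled DLD1 wild-type, 9 were called higher and 0 lower, against 22.2% and 27.7%. In MDA-MB-231, 8 were called higher and 0 lower, against 24.1% and 22.4%. SF3B1, SF3B2, SF3B3, SF3B4, SF3B5 and SF3B6 were called higher in each of the 4. With library totals SF3B5 and SF3B6 kept these calls in each line, while 4 of the 10 genes changed sign in A375, 4 in Cal51, 5 in the DLD1 label and 3 in MDA-MB-231. In MDA-MB-231 these were SF3A3, SF3B1 (-0.11) and SF3B4 (-0.09). These contrasts have 2 libraries on each side and share the spread of 16 groups. The calls of SF3B2 and PHF5A in A375 were lost without any 1 of the 4 libraries compared, and that of PHF5A in the DLD1 label without any 1 of 3 of them. Without the second OTS964 library SF3B4 was also not called there, at 0.24 (adjusted p = 0.11, edgeR), and SF3A2 was called lower, at -0.67 (adjusted p = 0.0064). In MDA-MB-231 the call of SF3B1 was lost without the second OTS964 library, and that of SF3B4 without the first OTS964 library or either DMSO library. Those of SF3B5 and SF3B6 were kept in each of these fits.

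**Figure D3:**
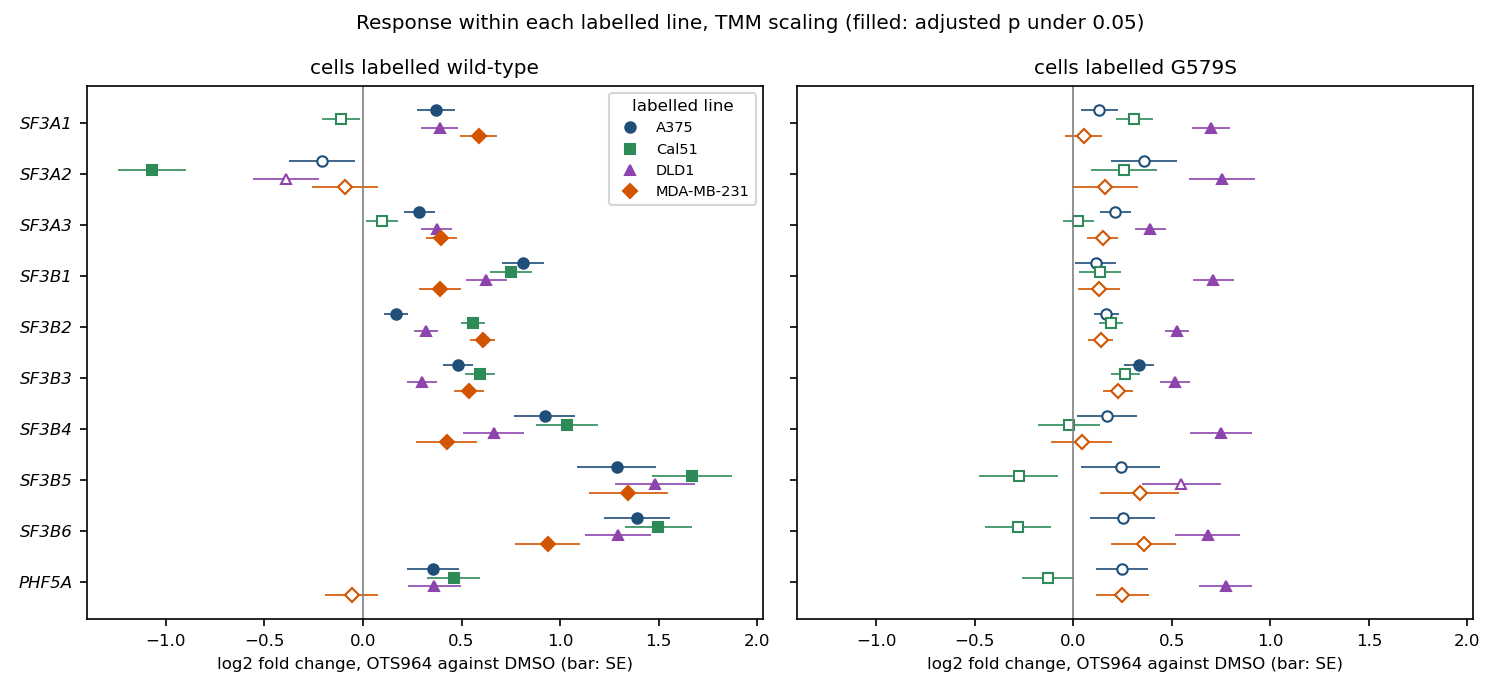
Log2 fold change with OTS964 (x axis, TMM scale, bars are SE) of each gene in the 4 lines, for cells labelled wild-type (left) and G579S (right). Filled symbols have an adjusted p under 0.05. On the left SF3B5 and SF3B6 lie between 0.94 and 1.67 in each line. On the right the filled symbols belong to DLD1 (9 genes) and to SF3B3 in A375.

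The makeup of the complex at the RNA level can be read without any scaling between libraries, as the share of each gene in the summed TPM of the 10 within a library. These shares were not tested, and counts without overlap again compare 2 libraries with 2. In A375 wild-type cells SF3B5 went from 12.3% and 12.5% under DMSO to 17.8% and 18.0% under OTS964. In Cal51 it went from 23.2% and 22.3% to 37.0% and 37.4%, and in the DLD1 label from 12.3% and 10.3% to 23.0% and 15.3%. In MDA-MB-231 it went from 18.1% and 20.0% to 32.6% and 26.3%. SF3B5 and SF3B6 had a higher share without overlap in 4 of 4 wild-type lines. SF3A2, SF3A3, SF3B2, SF3B3 and PHF5A had a lower share without overlap in 4 of 4. SF3A1 and SF3B1 had a lower share without overlap in 3, and SF3B4 a higher one in 2 and a lower one in 1.

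Over the 8 wild-type libraries of each treatment the median share of SF3B6 went from 13.5% (12.0% to 18.8%) to 20.4% (12.8% to 26.4%). That of SF3A2 went from 9.14% (7.73% to 14.5%) to 3.8% (2.42% to 9.16%), and that of SF3B2 from 16.6% to 12.5%. The ratio of SF3B5 to SF3A2 in TPM had a median of 1.51 (1.26 to 2.26) under DMSO and of 4.55 (3.43 to 15.5) under OTS964, so that the ranges did not overlap. In G579S cells the same ratio had medians of 2.3 (1.34 to 3.07) and 1.9 (1.45 to 2.66), with overlapping ranges. Without the libraries labelled DLD1 the ratio had medians of 1.58 and 4.55 in wild-type cells and of 1.84 and 1.72 in G579S cells, and the wild-type median share of SF3B6 went from 12.5% to 17.8%, that of SF3A2 from 10.1% to 4.02% and that of SF3B2 from 17.2% to 12.5%. In G579S cells the share of SF3A2 was higher without overlap in 3 of 4 lines, and that of SF3B6 in 2. SF3B5 there had a higher share without overlap in MDA-MB-231 and a lower one in DLD1. The share of SF3B6 in G579S cells had medians of 16.2% and 16.6%, and that of SF3A2 of 8.52% and 9.54%. Shares depend on one another, since a gene that gains lowers the rest.

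**Figure D4:**
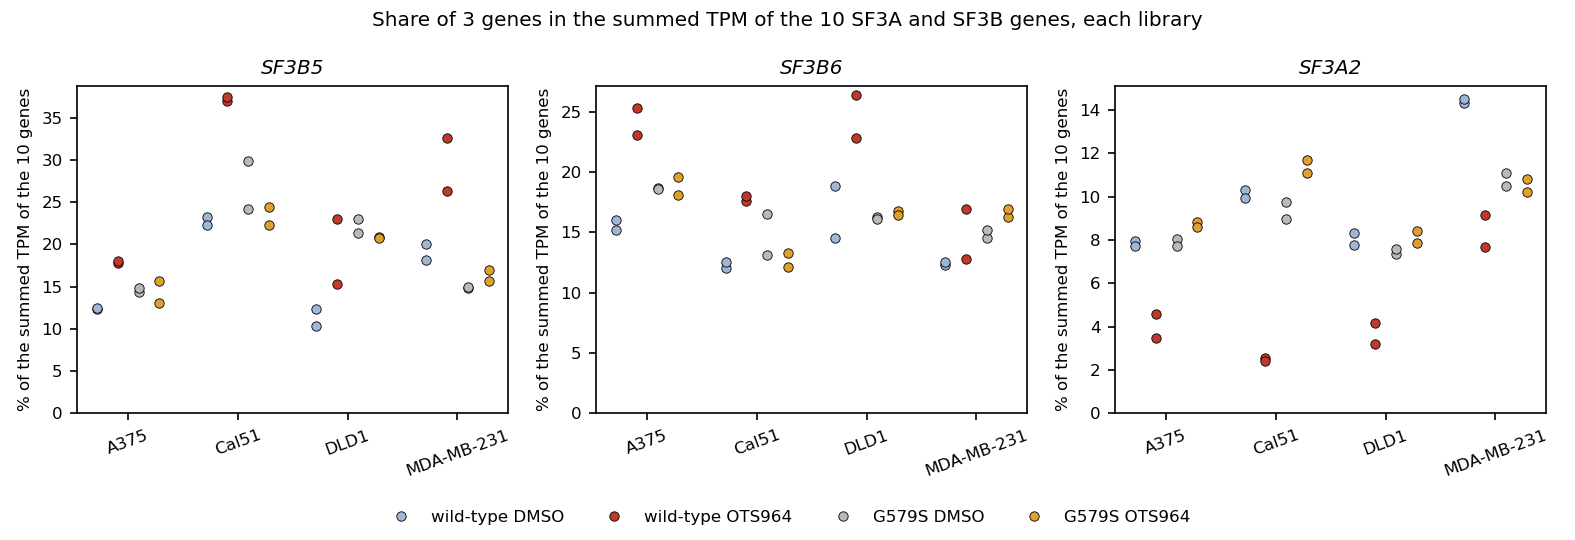
Share of SF3B5, SF3B6 and SF3A2 in the summed TPM of the 10 genes (y axis, percent) in each library, by labelled line (x axis). The wild-type OTS964 points (red) stand above the wild-type DMSO points (blue) for SF3B5 and SF3B6 and below them for SF3A2 in each of the 4 lines. The G579S points of SF3A2 under OTS964 lie above those under DMSO without overlap in 3 of the 4 lines.

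In G579S cells the response of the complex was small outside DLD1. Across the 4 lines 3 of the 10 genes were called higher, SF3A2 by 0.38 ± 0.09, SF3B3 by 0.34 ± 0.05 and SF3B2 by 0.26 ± 0.06 (log2 ± SE), against 2.43% of all genes called. All 10 values were positive, between 0.20 and 0.38, and 8 had an unadjusted p under 0.05, against 22% of all genes. The median of the 10 was 0.26 and that of all genes -0.01. Without the libraries labelled DLD1, 0 of the 10 were called by edgeR at an adjusted p under 0.05, and 0.199% of all genes (28) were. DESeq2 called 6 of the 10 with all lines, against 13.8% of all genes. Leaving out 1 library moved the count of the 10 to between 1 and 9, and that of all genes from 348 to between 97 and 1670. Both counts were highest without the second Cal51 DMSO library. The count of the 10 was 1 without the first A375 DMSO or OTS964 library, the second Cal51 OTS964 library or any 1 of the 4 DLD1 libraries. Those fits called 97 to 187 of all genes.

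By line, 9 of the 10 genes were called in DLD1 G579S cells, each of them higher, against 23.5% of all genes. Their changes lay between 0.39 for SF3A3 and 0.77 for PHF5A, and SF3B5, at 0.55 ± 0.20, was the 1 not called (adjusted p = 0.054, edgeR). With library totals 7 were called, and SF3A3 (0.14) and SF3B6 (0.43) were not. The share of all genes called under that scaling is not given here. PHF5A there held 133 and 128 TPM under DMSO and 185 and 176 under OTS964. In A375 G579S cells SF3B3 was called, at 0.33 ± 0.08, against 0.656% of all genes, and that call was lost without any 1 of the 4 libraries. In Cal51 and MDA-MB-231 G579S cells 0 of the 10 were called by edgeR's test, against 0.391% and 0.307% of all genes, and 3 of the 10 in each had an unadjusted p under 0.05, against 13.5% of all genes in Cal51 and 12.2% in MDA-MB-231. DESeq2 called 3 of the 10 in Cal51, against 4.38% of all genes. Leaving out 1 Cal51 G579S library put the change of SF3B5 there between -0.592 and 0.128 and that of SF3B6 between -0.602 and 0.138. The response differed among the 4 G579S lines for SF3A1, SF3B1, SF3B2 and PHF5A, with adjusted p of 0.012, 0.023, 0.015 and 0.023 (edgeR), against 10.7% of all genes. Without the DLD1 label that test called 0 of the 10 and 0.0851% of all genes.

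The difference between the genotypes' responses was tested itself. For 5 of the 10 genes the response in wild-type cells differed from that in G579S cells, against 50.1% of all genes. SF3B5 responded more strongly in wild-type cells by 1.23 ± 0.16 (log2 ± SE, adjusted p = 4.3e-07, edgeR), SF3B6 by 1.03 ± 0.16 (adjusted p = 4.7e-06), SF3B4 by 0.53 ± 0.15 (0.0041) and SF3B1 by 0.37 ± 0.11 (0.0063). SF3A2 differed the other way, by -0.82 ± 0.17 (adjusted p = 0.00016, edgeR). Its change was negative across wild-type lines and positive across G579S lines, the latter not called without the libraries labelled DLD1. With edgeR on the TMM scale and all lines, the share of genes called among the 10 was near that of all genes. With library totals 2 of the 10 were higher and 6 lower, against 12.6% and 36.3% of all genes. There SF3B5, SF3B6 and SF3A2 kept their calls and directions, at 0.80, 0.60 and -1.25. SF3B4 was then at 0.10 and SF3B1 at -0.06, neither called, and SF3A1, SF3A3, SF3B2 and SF3B3 also changed sign. Without the libraries labelled DLD1, SF3B5, SF3B6 and SF3A2 stood at 1.34, 1.17 and -0.71 on the TMM scale, all called. There 2 genes that were not called with all lines also passed the test, in an unchanged direction. The share of all genes called in that fit is not given here.

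Under DMSO the order of the genes by TPM, which is per length, was led by SF3B2, with a median of 288 over the 8 wild-type libraries. SF3B5 followed at 256, SF3B6 at 231, SF3B4 at 209, SF3A2 at 154, SF3A3 at 140, SF3B1 at 116, PHF5A at 112, SF3A1 at 80.1 and SF3B3 at 74.6. By line, SF3B2 led in A375, SF3B5 in Cal51 and MDA-MB-231 and SF3B6 in the DLD1 label. Without the DLD1 label SF3B5 led with a median of 317, and SF3B2 followed at 287. Neighbours in this order were often not separated. SF3B2 was above SF3B5 in 4 of the 8 libraries, SF3B5 above SF3B6 in 4, SF3A2 above SF3A3 in 4 and SF3B1 above PHF5A in 4. SF3B6 was above SF3B4 in 7 of 8 and PHF5A above SF3A1 in 6 of 8. The transcripts behind these values ran from 737 bases for SF3B5 and 771 for SF3B6 to 9720 for SF3B3.

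The wild-type lines differed under DMSO for 10 of the 10 genes in edgeR's test, against 67.8% of all genes. It was again 10 without the DLD1 label, against 69.1%. SF3B3 held 40.4 and 39.8 TPM in MDA-MB-231 and 78 and 76.3 in Cal51, 70.6 and 72.9 in A375 and 97 and 87.3 in the DLD1 label. PHF5A was also lowest in MDA-MB-231, at 69.5 and 65.9, and highest in Cal51, at 130 and 132. SF3A2 was highest in MDA-MB-231, at 236 and 245, against 128 to 171 in the other 3. SF3B5 was highest in Cal51, at 386 and 364 TPM, and lowest in A375 and the DLD1 label, at 184 to 216. SF3A3 and SF3B4 were lowest in Cal51, at 99.9 and 102 and at 147 and 140 TPM.

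Between genotypes under DMSO 2 of the 10 genes were called in A375, 2 in Cal51 and 1 in MDA-MB-231. In A375, SF3B2 (-0.28 ± 0.06, log2 ± SE, G579S minus wild-type) and SF3A3 (-0.26 ± 0.08) were called, against 9.77% of all genes. In Cal51, SF3B1 (-0.31 ± 0.11) and SF3A3 (-0.25 ± 0.08) were called, against 17% of all genes. In MDA-MB-231, SF3A2 was called, at -0.60 ± 0.17, against 7.3%. It held 236 and 245 TPM in wild-type and 159 and 176 in G579S cells. At an unadjusted p under 0.05 in edgeR's test, 2 of the 10 genes passed in A375, 4 in Cal51 and 6 in MDA-MB-231. Of all 14319 genes 2887, 4119 and 2859 did so. Leaving out any 1 of the 4 libraries compared ended the call in MDA-MB-231. In A375, leaving out 1 library left 0 or 1 call, and in Cal51 between 0 and 4. The 2 Cal51 G579S libraries under DMSO differed by more than the genotypes, at 144 and 85.5 TPM of SF3B1. The libraries labelled DLD1 differed in 8 of the 10 genes, 7 lower and 1 higher in G579S, against 49.2% of all genes. Leaving out 1 library left 5 to 7 calls, and that of SF3B5, the higher gene, was lost in 4 of 4 fits. The gap was widest for SF3B2, at 287 and 291 against 149 and 145 TPM. The melanocyte and intestinal markers above differed between those libraries too, so genotype and cell identity cannot be told apart there.

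The proteins around the complex were followed through 4 lists. Of 16 other proteins of the U2 particle or the branch site, 11 were called higher and 4 lower in wild-type cells on the TMM scale, with a median of 0.28. Over all genes these shares were 27.1% and 31.8%, and the median was -0.11. With library totals it was 4 and 9, and -0.27, against 13.4% and 47.7% of all genes and a median of -0.65. Without the DLD1 label 10 were higher and 4 lower, and the counts of the U11/U12 list and the kinase and phosphatase list below were as with it. SMNDC1, a splicing factor of the SMN-related family, rose by 2.08 ± 0.35 (log2 ± SE), from a mean of 44.6 to 223 CPM. CHERP, RBM17 and DDX42 fell. CHERP and RBM17, which associate with the U2 particle, changed by -1.76 ± 0.08 and -1.0 ± 0.08. DDX42, a helicase that binds SF3B1, changed by -1.51 ± 0.06. CHERP went from a mean of 202 to 57.8 CPM, and these 4 directions were the same with library totals.

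Of 8 proteins of the U11/U12 particle, which also contains SF3B, 2 were called higher and 4 lower, against 27.1% and 31.8% of all genes, with a median of -0.55 (1 and 5, and -1.09, with library totals). ZRSR2, which reads the minor 3′ splice site, changed by -1.68 ± 0.22, PDCD7 by -1.25 ± 0.18 and SNRNP35 by -1.23 ± 0.15, while SNRNP25 changed by 1.10 ± 0.11 (log2 ± SE). Of 26 tested proteins of the activated spliceosome, from a list of 27, 9 were called higher and 6 lower, near the 27.1% and 31.8% of all genes, with a median of 0.11 (6 and 15, and -0.44, with library totals). It was 9 and 5 without the DLD1 label. BUD13 of the RES complex changed by -2.84 ± 0.28, ZNF830 by 1.78 ± 0.14, SNW1 by -1.28 ± 0.35 and RBM22, which lies by the active site, by -1.24 ± 0.08.

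The last list holds 9 genes for kinases and phosphatases that act on SF3B1 and for their partners. There 2 were called higher and 3 lower, near the 27.1% and 31.8% of all genes, with a median of -0.17 (2 and 7, and -0.72, with library totals). PPP1R8, which encodes NIPP1, the protein phosphatase 1 subunit that docks on phosphorylated SF3B1, changed by -4.79 ± 0.48 (log2 ± SE, adjusted p = 7.2e-07, edgeR), from a mean of 72.8 to 3.46 CPM. The cyclin CCNL1, a partner of CDK11, changed by 2.48 ± 0.42, from 8.61 to 54.7 CPM. SAP30BP, which joins the CDK11 and cyclin L complex, changed by -1.26 ± 0.08 and the catalytic subunit PPP1CA by 0.90 ± 0.10. CDK11A changed by -0.36 ± 0.09, and CDK11B, its near-identical copy, by -0.17 ± 0.10 without passing the test. Reads of that pair may be split between them by estimate. CCNL2 (-0.08 ± 0.20), PPP1CB (-0.18 ± 0.13) and PPP1CC (-0.02 ± 0.16) were not called. Across G579S lines 1 of the 9 was called, CCNL1, at 1.31 ± 0.27 (log2 ± SE, adjusted p = 0.025, edgeR), against 2.43% of all genes. The response of CCNL1 was not called different between genotypes (1.17 ± 0.50, adjusted p = 0.055, edgeR).

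Over the 16 group means of log2 CPM, the genes whose level was most like that of SF3B1 were RND3 (Pearson r = 0.925), IPO11 (0.925), LMAN1 (0.917), FBXO5 (0.909) and EXOC4 (0.908). Within the complex SF3B5 was most like SF3B1, at 0.748, and SF3B6 followed at 0.554, SF3B2 at 0.393, SF3B4 at 0.339 and SF3B3 at 0.313. PHF5A stood at 0.262, SF3A3 at 0.117, SF3A1 at 0.104 and SF3A2 at -0.394. Among all genes tested SF3B5 ranked 248 and SF3B6 1053 in likeness to SF3B1. Without the DLD1 label, over 12 groups, the 5 genes stood between 0.912 and 0.955, SF3B5 at 0.728 and SF3A2 at -0.59. There RND3 ranked 2, LMAN1 3, EXOC4 12, IPO11 17 and FBXO5 35, so not all of the 5 stayed the most alike. The groups share lines, treatments and scaling factors, so these are descriptions.

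The 10 genes differ widely in structure. SF3B5 has 1 exon and so needs no splicing, SF3B6 and PHF5A have 4, SF3B4 has 6, SF3A2 has 9 and the other 5 have 16 to 26. Over all genes tested with an exon count in GENCODE 29 (94.4%), the median TMM-scaled change in wild-type cells was 0.81 for 364 genes with 1 exon, 0.10 for 2 to 4, -0.03 for 5 to 9, -0.25 for 10 to 16 and -0.29 for 17 or more. The first and the last class without the DLD1 label had medians of 0.73 and -0.25. SF3B5, at 1.45, lay above its class and so did SF3B6, at 1.28. SF3B1, with 25 exons, and SF3B3, with 26, at 0.64 and 0.48, lay further above their class than PHF5A did, at 0.28. SF3A2, at -0.44, lay below its class. Over the 10 genes Spearman's rho of the change with the number of exons was -0.243, and over all genes -0.138. With transcript length the values were -0.236 and -0.317. Whether exon number had a part in the response of these genes was not tested.

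**Figure D5:**
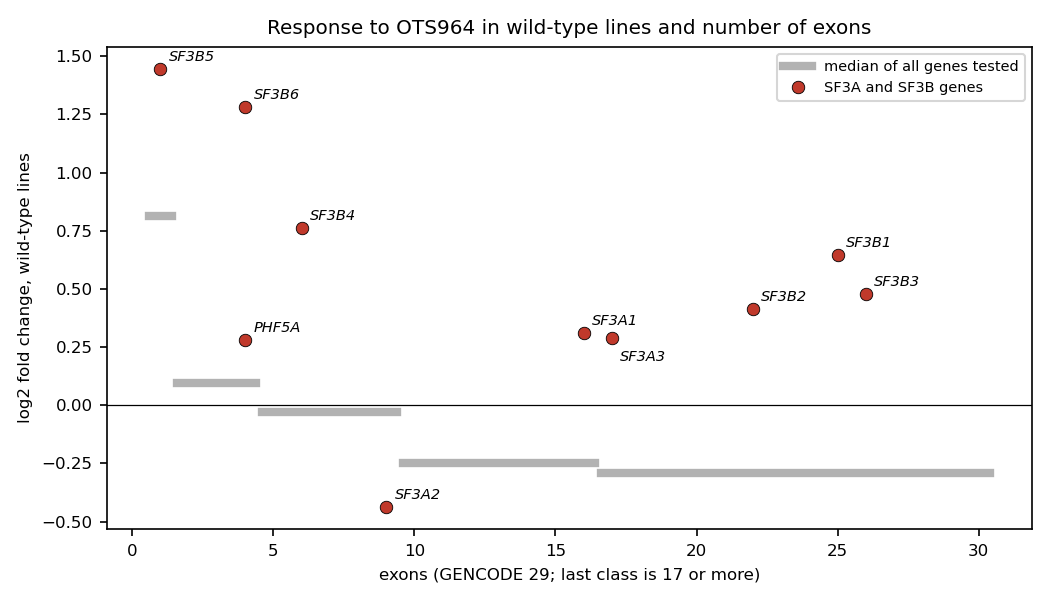
Log2 fold change with OTS964 across wild-type lines (y axis, TMM scale) against the number of exons (x axis, GENCODE 29) of the 10 genes (red), with the median of all genes tested in each class of exon number (grey bars). SF3B5 with 1 exon and SF3B6 with 4 stand highest, and SF3A2 with 9 exons stands below the bar of its class.

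SF3B2 was the gene of the complex with 2 matched transcripts that took reads, so its usage could be tested. The predicted transcript held a median of 3.61% (2.7% to 4.17%) of its reads in wild-type DMSO libraries and of 3.03% (2.19% to 4.4%) in wild-type OTS964 libraries. Its usage relative to the gene changed by -0.11 on the log2 scale, with an adjusted p of 0.57 in edgeR's gene-level test, against 15.7% of 6403 genes called. The ranges overlapped, and the change did not pass the test. In the G579S libraries the share ran from 0.948% to 4.94% under DMSO, with the lowest value in the second Cal51 library.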

How the data were processed

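The 32 libraries were grouped by the line, genotype and treatment in their titles. The authors deposited 1 table per library, with estimated counts and TPM for 87398 transcript identifiers (per the file headers). These deposited estimated counts carry fractions and no normalization, and the deposited TPM are scaled by transcript length and library total. The quantification tool was not given in the sources used here. The submitters' processing notes name mouse builds only, while the identifiers are human, so no coordinates are given besides those of RefSeq's promoter table.

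Identifiers without version were matched to symbols through RefSeq and GENCODE tables (42587, or 48.7%, holding 87.56% of the reads on average), and the other reads stayed out of library sizes and tests. Estimated counts were summed by gene and rounded. Genes that passed edgeR's filter entered the quasi-likelihood test of edgeR 4.0.16 (R 4.3.3) with robust dispersion and TMM scaling, with p-values adjusted over all 14319 genes by Benjamini and Hochberg and a threshold of 0.05. Tests across lines had the line as a block and 11 residual degrees of freedom (22 for the difference between genotypes), and those within lines came from 1 fit of 16 groups with 16. The tests of differences in response among lines were chosen after seeing the data. For transcript usage, diffSpliceDGE of edgeR was used. Each CPM of the text is scaled by TMM factors, and log2 CPM used a prior count of 2. The fits were tested on simulated data in which few genes changed, in both directions, so that test does not bear on the choice of scaling. At the smallest matched size, 14333298 reads, a value of 0 allows up to 3 counts, which covers counting error only.

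Named were all 10 genes, up to 4 genes with the largest called change in each context list, all 9 of the kinase and phosphatase list, and the 5 genes most like SF3B1 in Pearson r over group means. The members and lists were chosen with earlier results of these data known. Alternatives were scaling by library totals, DESeq2 1.42.0, no filter on low counts, counts rebuilt from TPM and length, curated transcripts only, a replicate block, and fits without 1 library or the libraries labelled DLD1. The values of pooled descriptions without the libraries labelled DLD1 were added after seeing the data.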

Additional observations from a re-analysis of the deposited data

Results flagged for a closer look

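The response to OTS964 differed between genotypes for 5 of the 10 genes in edgeR's test of the difference itself, wild-type minus G579S on the log2 scale. The difference was -0.82 for SF3A2, 0.37 for SF3B1, 0.53 for SF3B4, 1.23 for SF3B5 and 1.03 for SF3B6. The same test called 50.1% of all genes. SF3A2 was lower across wild-type lines and higher across G579S lines, and its call across G579S lines was lost without the libraries labelled DLD1. In libraries labelled DLD1 the genotypes also differ in melanocyte and intestinal markers, and without those libraries all 5 calls remained. With library totals SF3B1 stood at -0.057 and SF3B4 at 0.095, neither called, and 2 of the 10 genes were higher and 6 lower.

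Among the 4 wild-type lines the response differed for 3 of the 10 genes in edgeR's interaction test, near the 26.7% of all genes, with adjusted p of 0.0033 for SF3A1, 0.016 for SF3A2 and 0.0017 for SF3B2. SF3A1 and SF3A2 had their lowest response in Cal51, at -0.11 and -1.07. Among the 4 G579S lines the response differed for 4 of the 10 genes, against 10.7% of all genes, with adjusted p of 0.012 for SF3A1, 0.023 for SF3B1, 0.015 for SF3B2 and 0.023 for PHF5A. Each of the 4 had its highest response in DLD1, at 0.70, 0.71, 0.53 and 0.77, and 0 were called without that line.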

How the results depend on the processing

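The response of SF3B5, SF3B6 and SF3A2 across wild-type lines kept its direction and its call in each fit of the across-line test, including scaling by library totals and each fit without 1 library. Scaling by library totals changed most else, and the cause was not tested, besides that the shift of single genes had a median of -0.545 in wild-type cells. With it, 2 members were higher and 4 lower across wild-type lines, and SF3A1 (-0.24), SF3A3 (-0.26), SF3B2 (-0.14), SF3B3 (-0.07) and PHF5A (-0.27) reversed. It left 21.9% of the called genes on the higher side, against 46.0% under TMM. In the difference between genotypes 2 members were higher and 6 lower, with SF3A1 at -0.42, SF3A3 at -0.34, SF3B1 at -0.057, SF3B2 at -0.28 and SF3B3 at -0.29. Within wild-type lines the reversed values were, in A375, SF3A1 -0.069, SF3A3 -0.15, SF3B2 -0.27 and PHF5A -0.084. In Cal51 they were SF3A3 -0.61, SF3B2 -0.15, SF3B3 -0.11 and PHF5A -0.24. In the DLD1 label they were SF3A1 -0.15, SF3A3 -0.17, SF3B2 -0.23, SF3B3 -0.24 and PHF5A -0.17, with 5 members called. In MDA-MB-231 they were SF3A3 -0.11, SF3B1 -0.11 and SF3B4 -0.088, with 4 called. The shares of all genes called in these fits within lines are not given here. In G579S cells library totals gave 808 genes across lines, 0 members in A375, SF3A1 at -0.07 and SF3B4 at -0.08 in MDA-MB-231, and 0 members differing among lines. In the genotype contrast under DMSO they gave SF3B3 at 0 in A375 and SF3B4 at -0.018 in Cal51.

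DESeq2 called 6 members and 1768 genes (13.8%) across G579S lines. It called 3 members in Cal51 G579S cells, against 4.38% of all genes, and 2 in the genotype contrast of MDA-MB-231. In the difference DESeq2 called 7 members higher, and of the 7777 genes called there 53.4% were higher. DESeq2 put PHF5A at 0.10 in the difference, SF3A1 at 0.004 in Cal51 wild-type cells, SF3B4 at 0.004 in Cal51 G579S cells and SF3A2 at 0.009 in the genotype contrast of A375. Counts rebuilt from TPM put the difference of SF3A1 at 0. Without the filter on low counts 0 members were called in A375 G579S cells and 1 each in the genotype contrasts of A375 and Cal51. Without the libraries labelled DLD1, 0 members and 28 genes were called across G579S lines, PHF5A stood at 0.13 in the difference, and the response differed among the other wild-type lines for 5 members and among the other G579S lines for 0. Curated transcripts only left no member to test for usage, so that alternative was not run.

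Samples that share a replicate number did not deviate together between treatments, with correlations of -0.035 to 0.068 in the 8 pairs of groups, so the numbers are not taken as pairs. A replicate block left 0 members and 0 genes across G579S lines, 0 members in A375 G579S cells and 1 each in the genotype contrasts of A375 and Cal51, where SF3B4 stood at 0.

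Leaving out 1 library at a time gave 97 to 1670 genes and 1 to 9 members across G579S lines, 0 members in A375 G579S cells and 0 to 5 in Cal51 G579S cells. In the genotype contrasts it gave 0 to 1 members in A375, 0 to 4 in Cal51, 5 to 7 in the DLD1 label and 0 in MDA-MB-231. The shares of all genes called in those fits within lines and between genotypes are not given here. In the difference SF3A1 lay between -0.048 and 0.057 and PHF5A between -0.088 and 0.048. In the genotype contrast of A375, SF3A2 lay between -0.058 and 0.026 and SF3B4 between -0.082 and 0.03. In that of Cal51, SF3A2 lay between -0.333 and 0.126, SF3B4 between -0.177 and 0.166, SF3B5 between -0.102 and 0.618, SF3B6 between -0.095 and 0.645 and PHF5A between -0.379 and 0.072. The response in Cal51 G579S cells lay between -0.038 and 0.097 for SF3A3, -0.057 and 0.363 for SF3B1, -0.182 and 0.162 for SF3B4, -0.592 and 0.128 for SF3B5, -0.602 and 0.138 for SF3B6 and -0.335 and 0.116 for PHF5A. In MDA-MB-231 wild-type cells it lay between -0.375 and 0.138 for SF3A2 and -0.21 and 0.075 for PHF5A. The extremes of Cal51 came from leaving out 1 of the 2 G579S DMSO libraries, and those of MDA-MB-231 from 1 of the 2 wild-type OTS964 libraries.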
